A study of Homo sapiens with 20 samples.

Results

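The 8 genes DIO1, PIGR, MAT1A, FABP6, CYP3A5, RFX6, HNF4G and SPINK1, best known from gut and liver, were followed through EHMT1 silencing and EHMT1 induction in LNCaP cells. They are 8 of the 57773 genes in the count tables, and all 8 were found in both tables. The list was put together from gut- and liver-type genes that were higher after EHMT1 silencing, with a hepatocyte nuclear factor of this lineage. The members were thus chosen by their siEHMT1 over siNTC fold change, and that contrast is given as a description with no test. The rule did not use the doxycycline contrast, which is tested, although earlier results of both experiments were known when the list was made.

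EHMT1 (also called GLP) is a histone methyltransferase that, with EHMT2 (G9a), places mono- and dimethyl marks on lysine 9 of histone H3, marks associated with gene silencing, and the study asked what EHMT1 and a pair of methylated lysines in it do in prostate cancer cells. LNCaP is a human prostate adenocarcinoma line, grown from a lymph node metastasis. In the first experiment, cells received 20 nM of a non-targeting siRNA (siNTC, 2 samples) or of a pool of siRNAs against EHMT1 (siEHMT1, 2 samples) for 2 days. In the second, LNCaP-tet-EHMT1 lines carried a lentiviral, doxycycline-inducible, V5-tagged EHMT1 beside the cells' own EHMT1, as wild-type protein (WT) or with lysine to arginine changes (K450R, K451R or K450RK451R). Each of these 4 lines received vehicle (Veh) or 0.25 µg/mL doxycycline (Dox) for 2 days. Each line was a single selected population, so the construct and whatever else sets a line apart cannot be told apart, and no line without the transgene was given doxycycline among the samples used here. The measurement was sequencing of total RNA, counted per gene.

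The genes belong to tissues that arise from the endoderm. Hepatocyte nuclear factors, among them HNF4A and HNF4G, FOXA factors and GATA factors form a network that switches on liver and intestinal genes, and RFX6 acts downstream of it in pancreatic islets and enteroendocrine cells. The enzymes, carriers and secreted proteins at the end of this network do the work of these organs: conversion of thyroid hormone, bile acid transport, drug oxidation, methionine use and transport of antibodies into secretions. Prostate epithelium shares the endodermal origin and uses FOXA1, but it is not a site where most of these products are abundant.

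Depth was 5593400 to 12438006 counts per siRNA sample. The 2 deposited columns of each stable-line condition differed by no more than counting noise (chi-square per degree of freedom 0.995 to 1.02), against 61.6 between the siNTC samples and 13.4 between the siEHMT1 samples, so these columns were summed to 8 libraries of 8436791 to 12407739 counts, 1 per condition, and each was counted once. Levels are given as CPM, counts scaled to a common library size with TMM (a correction of library size for composition), and as RPKM, which is CPM per kilobase of exon, wherever genes are compared with each other. The 2 tables are separate experiments that were scaled separately, so their levels are set side by side with no test. At these depths 3 counts, taken as the lowest number that can be told from 0, correspond to 0.232 to 0.587 CPM.

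The targeted gene followed the labels. EHMT1 was at 87.9 and 82.8 CPM with siNTC and at 29.2 and 30.7 CPM with siEHMT1, a log2 fold change of -1.51 (SE 0.108, adjusted p = 1.51e-07, quasi-likelihood fit in edgeR, adjusted by Benjamini-Hochberg over all genes tested). In the stable lines EHMT1 was at 71.0 to 88.4 CPM in the 4 Veh libraries and at 661.5 to 840.8 CPM in the 4 Dox libraries, a log2 fold change of 3.23 (SE 0.0694, adjusted p = 1.02e-23). The prostate label also held. All 10 prostate luminal markers found in the tables were well counted, with KLK3 (prostate-specific antigen) at a mean of 1683 RPKM over the 8 stable-line libraries. The 6 defining hepatocyte markers had summed levels of 1.22 to 4.78 CPM over the 12 libraries. The 6 enterocyte markers had 0 to 0.398 CPM, with FABP1, FABP2 and APOA4 at 0 in every library. The 6 leukocyte markers had 0.113 to 0.735 CPM with PTPRC at 0. The 6 fibroblast markers reached 16.1 to 41.6 CPM, nearly all from COL1A1, with COL1A2 and PDGFRA at 0.

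The RefSeq sequence around the start sites of the genes is shown first, as context for which regulators of this lineage could be looked for in the data. The genes were chosen on the siEHMT1 contrast, so their rise together is not read as shared regulation. RefSeq (GRCh38.p14) gave a sequence of 250 bases before and 50 after the start for 6 of the 8 genes, and those of RFX6 and HNF4G were not used here. Those of DIO1, PIGR, CYP3A5 and FABP6 are printed below, 5′ to 3′ on the strand of the gene, because they hold a match to one of 5 short motifs searched on both strands. The first motif was AGGTCA, the half-site bound by many nuclear receptors, and the second CAAAGTCCA, a form bound by HNF4 factors. TGTTTAC is a forkhead motif bound by FOXA factors, and its variant TGTTTGC was searched as well. The last was the TATA box letters TATAAA. Capitals mark the matches, on either strand, and no match overlapped another. The DIO1 stretch lies at chr1:53893937-53894236 (plus strand), that of PIGR at chr1:206946417-206946716 (minus strand), that of CYP3A5 at chr7:99679947-99680246 (minus strand) and that of FABP6 at chr5:160229256-160229555 (plus strand).
DIO1: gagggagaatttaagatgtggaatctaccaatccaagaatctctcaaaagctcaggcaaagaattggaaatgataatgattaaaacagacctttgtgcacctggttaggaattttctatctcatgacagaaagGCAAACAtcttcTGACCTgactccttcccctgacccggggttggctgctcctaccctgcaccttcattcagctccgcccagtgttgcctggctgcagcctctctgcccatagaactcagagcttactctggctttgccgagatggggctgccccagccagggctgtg
PIGR: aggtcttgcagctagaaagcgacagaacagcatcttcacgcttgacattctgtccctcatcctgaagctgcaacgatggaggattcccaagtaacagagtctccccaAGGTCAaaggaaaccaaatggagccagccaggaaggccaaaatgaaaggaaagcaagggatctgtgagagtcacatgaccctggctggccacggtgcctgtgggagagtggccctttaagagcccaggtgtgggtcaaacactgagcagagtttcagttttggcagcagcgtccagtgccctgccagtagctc
CYP3A5: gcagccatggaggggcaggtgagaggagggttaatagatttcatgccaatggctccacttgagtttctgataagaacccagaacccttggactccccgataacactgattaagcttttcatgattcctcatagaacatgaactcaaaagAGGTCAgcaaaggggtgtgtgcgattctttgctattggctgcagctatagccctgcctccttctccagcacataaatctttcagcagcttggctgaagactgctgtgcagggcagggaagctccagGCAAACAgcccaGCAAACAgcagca
FABP6: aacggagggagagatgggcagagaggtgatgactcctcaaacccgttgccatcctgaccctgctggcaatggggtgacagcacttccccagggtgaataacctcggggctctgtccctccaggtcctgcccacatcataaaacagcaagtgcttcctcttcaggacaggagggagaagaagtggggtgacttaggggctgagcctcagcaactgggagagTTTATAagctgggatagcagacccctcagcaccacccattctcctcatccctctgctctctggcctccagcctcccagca

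AGGTCA was present in DIO1, PIGR and CYP3A5 and in 13.8% of the 35116 stretches of this length in the table. In DIO1 it began 105 bases before the start site, on the reverse strand, and a forkhead motif TGTTTGC began 117 bases before. In PIGR it began 143 bases before the start site. CYP3A5 held AGGTCA at 101 bases before the start site and 2 copies of TGTTTGC that began 25 and 37 bases after it. TGTTTGC was found in 3.89% of all stretches. FABP6 held the TATAAA motif alone, on the reverse strand from 30 bases before the start, a motif found in 11.5% of stretches. MAT1A and SPINK1 held none of the 5 motifs, CAAAGTCCA (0.384% of all) and TGTTTAC (3.42%) were in none of the 6 stretches, and GC content was 48.0% to 57.7% against a median of 58.7% over the table. These are letter matches in a short window and were tied to no binding data.

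In the genome build of the files (hg19, GRCh37), with positions from GENCODE release 44 lifted to it, all 8 are protein-coding genes and they lie on 6 chromosomes. DIO1 (ENSG00000211452) spans 54356912 to 54376759 on the plus strand of chromosome 1 and PIGR (ENSG00000162896) 207101867 to 207119811 on the minus strand of the same chromosome. MAT1A (ENSG00000151224) spans 82031576 to 82049414 on the minus strand of chromosome 10, and CYP3A5 (ENSG00000106258) 99245817 to 99277619 on the minus strand of chromosome 7. FABP6 (ENSG00000170231) spans 159614374 to 159665742 on the plus strand of chromosome 5, and SPINK1 (ENSG00000164266) 147204135 to 147211234 on the minus strand of chromosome 5. RFX6 (ENSG00000185002) spans 117198375 to 117253324 on the plus strand of chromosome 6, and HNF4G (ENSG00000164749) 76320149 to 76479069 on the plus strand of chromosome 8. FABP6 is the one of the 8 with an annotated overlapping gene: its antisense transcript FABP6-AS1, which shares exonic bases and whose own counts were 9 over the 4 siRNA samples and 13 over the stable lines.

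**Figure D1:**
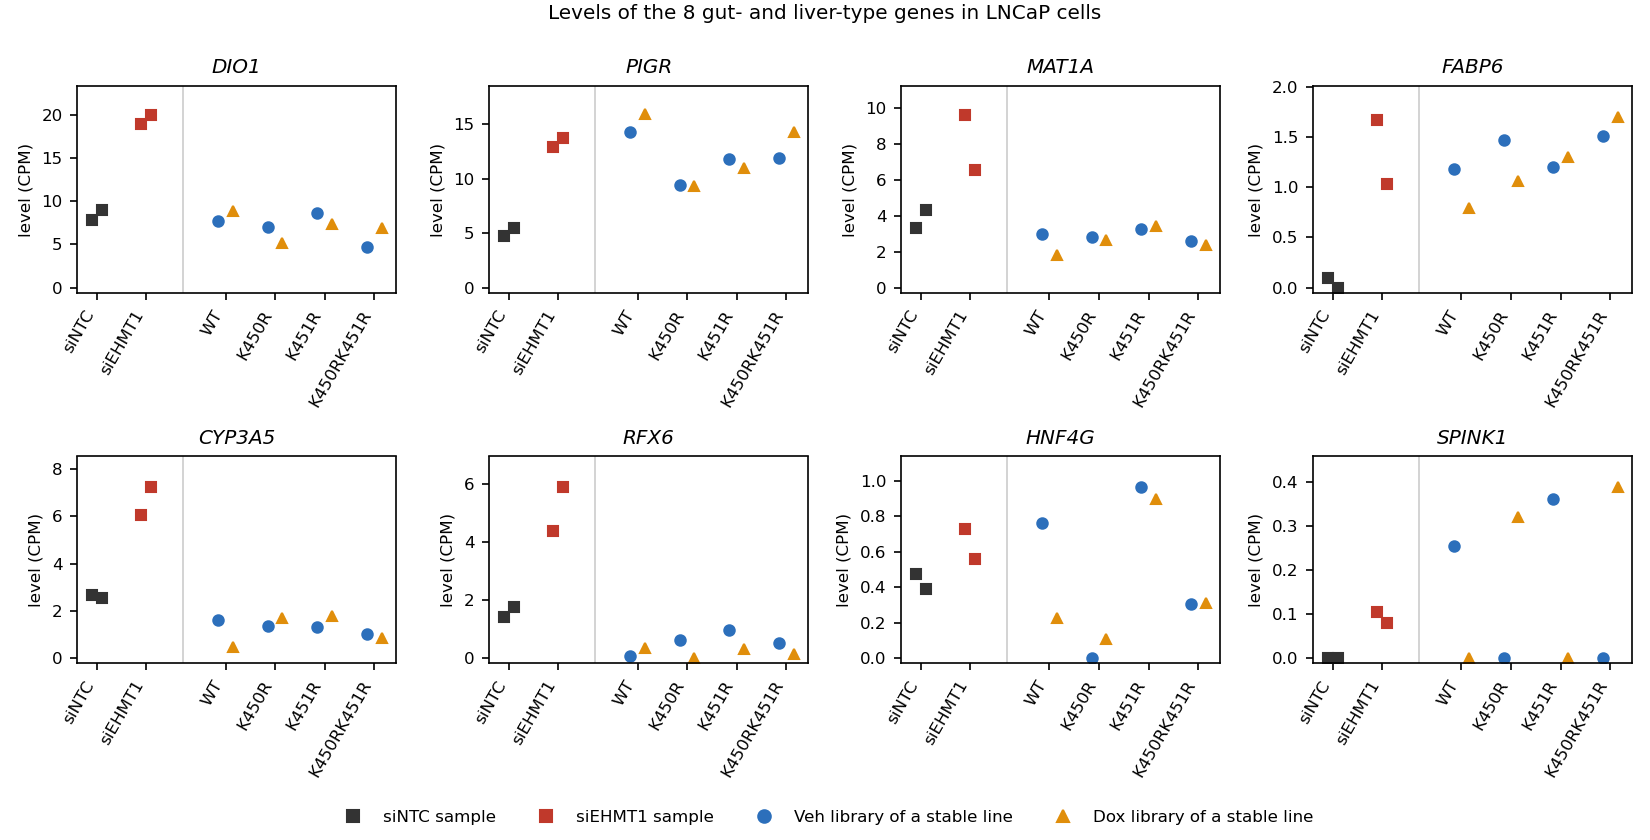
Level of each of the 8 genes in CPM (vertical axes, linear and separate for each gene) in the 2 siNTC and 2 siEHMT1 samples (squares) and in the Veh (circles) and Dox (triangles) library of each stable line. DIO1 stood at 18.9 and 20.0 CPM with siEHMT1 and at 4.74 to 9.01 CPM in all other samples, whereas PIGR and FABP6 reached the siEHMT1 range in stable-line libraries.

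Of the 8 genes, 6 passed the filter on low counts in the siRNA experiment. All 6 were at least 2-fold higher with siEHMT1, as were 1.13% of all 14532 genes tested, and in all 6 both siEHMT1 samples lay above both siNTC samples, as they did for 20.1% of genes tested. The median log2 fold change of the 6 was 1.37 against -0.00208 over all genes. Past an adjusted p of 0.05 lay 0.0619% of all genes on the higher side and 0.0688% on the lower. FABP6, with 1 and 0 counts in the siNTC samples, passed the filter through its siEHMT1 samples alone. Since this contrast chose the genes, nothing is read from these shares or from the median.

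The enzymes come first. DIO1, the deiodinase that turns thyroxine into the active thyroid hormone, was counted 83 and 46 times in the siNTC samples and 181 and 251 times in the siEHMT1 samples. These are 7.86 and 9.01 CPM against 18.9 and 20.0 CPM, a log2 fold change of 1.21 (SE 0.181). The siEHMT1 samples were closer to each other than the groups were, with group means of 8.43 ± 0.813 and 19.5 ± 0.776 CPM (SD, n = 2 each).

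MAT1A, the liver form of the enzyme that makes S-adenosylmethionine, the methyl donor of histone methyltransferases, had siNTC counts of 35 and 22 and siEHMT1 counts of 92 and 82. Its levels were 3.31 and 4.31 CPM with siNTC and 9.61 and 6.53 CPM with siEHMT1, and the log2 fold change was 1.10 (SE 0.284). The groups did not overlap, but the 2 siEHMT1 samples were farther apart than those of DIO1. CYP3A5, a cytochrome P450 that oxidises drugs and steroids, testosterone among them, had siNTC counts of 28 and 13 and siEHMT1 counts of 58 and 91. That is 2.65 and 2.55 CPM against 6.06 and 7.25 CPM, a log2 fold change of 1.35 (SE 0.293), with the siNTC samples almost equal.

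PIGR and FABP6 are transport proteins. PIGR, the receptor that carries dimeric IgA and IgM across epithelium into secretions, had siNTC counts of 50 and 28 and siEHMT1 counts of 124 and 172. Its levels of 4.73 and 5.48 CPM with siNTC stood against 13.0 and 13.7 CPM with siEHMT1, a log2 fold change of 1.40 (SE 0.218). FABP6, the ileal bile acid binding protein, had siNTC counts of 1 and 0 and siEHMT1 counts of 16 and 13. With a single count in the control group its size is poorly set: the ratio of summed counts was 20.5, with a 95% interval of 3.41 to 839.0 (exact conditional binomial). Intervals of this kind cover counting error only, and reads without molecular identifiers are not independent molecules.

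RFX6, a transcription factor of enteroendocrine and islet cells, had siNTC counts of 15 and 9 and siEHMT1 counts of 42 and 74. This was 1.42 and 1.76 CPM against 4.39 and 5.90 CPM, a log2 fold change of 1.73 (SE 0.355), the highest of the 6 after FABP6. The remaining pair did not pass the filter. HNF4G, a nuclear receptor of the HNF4 family found in gut, had siNTC counts of 5 and 2 and siEHMT1 counts of 7 and 7, a ratio of 1.42 with a counting interval of 0.535 to 4.15, which holds both no change and a 4-fold rise. SPINK1, a secreted trypsin inhibitor of pancreas and gut that is overexpressed in a subset of prostate cancers, had 0 counts in both siNTC samples and 1 in each siEHMT1 sample, all under the floor of 3 counts, and no ratio is given. For HNF4G and SPINK1 no difference was detectable at this depth.

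These samples are bulk RNA, in which a change in the level per cell and a change in the share of cells that express a gene cannot be told apart. Of the markers of other cells, TTR (transthyretin, a carrier protein of plasma) did not pass the test, with siNTC counts of 9 and 6 and siEHMT1 counts of 20 and 50 (log2 fold change 1.66, SE 0.469, adjusted p = 0.201, edgeR). The summed level of the 6 hepatocyte markers was 1.32 to 2.35 CPM with siNTC and 3.34 to 4.78 CPM with siEHMT1, with ALB at 3 and 1 counts against 7 and 3. Of the intestinal genes, 3 with higher counts are named here, picked after their values were seen. KRT20 had siNTC counts of 1 and 0 and siEHMT1 counts of 9 and 13. HEPH had 4 and 2 against 19 and 11, and VIL1, an enterocyte marker, had 0 and 0 against 1 and 5. Most of the rest of the list was too low to be tested, and nothing is said of those genes as a set. Of the 5 that could be tested, PIGR aside, 3 had a positive log2 fold change (median 0.123). SI was at -0.22 (SE 0.595) and TFF1 at -0.05 (SE 0.372). The summed level of the 39 intestinal genes, PIGR included, was 34.6 to 38.8 CPM with siNTC and 50.9 to 51.1 CPM with siEHMT1. PIGR, which was chosen on this contrast, made up 4.73 and 5.48 CPM of it with siNTC and 13.0 and 13.7 CPM with siEHMT1. A rise in this sum is therefore in large part that of a chosen gene. The part of these levels in the results was not tested.

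Fold changes were also looked up for the genes next to the 8 on the chromosome. Of the 41 fitted genes that lie within 250 kb of one of them, none passed the test with siEHMT1 at an adjusted p of 0.05 and 1 was at least 2-fold higher. Their median log2 fold change was 0.0436, and the range was -0.357 to 1.76. YIPF1, 1441 bases from DIO1, had a log2 fold change of 0.11, and HSPB11 on the other side of DIO1, 5488 bases away, had -0.31. ZSCAN25, the nearest fitted neighbour of CYP3A5, had -0.15. The neighbour at 1.76 was LDLRAD1, 96212 bases from DIO1, with siNTC counts of 5 and 4 and 22 counts in each siEHMT1 sample (adjusted p = 0.266, edgeR). The 12 fitted neighbours of CYP3A5 ranged from -0.243 to 0.536 and the 6 of PIGR from -0.357 to 0.118. These 4 neighbours were named, and the distance of 250 kb was set, after the values were seen.

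**Figure D2:**
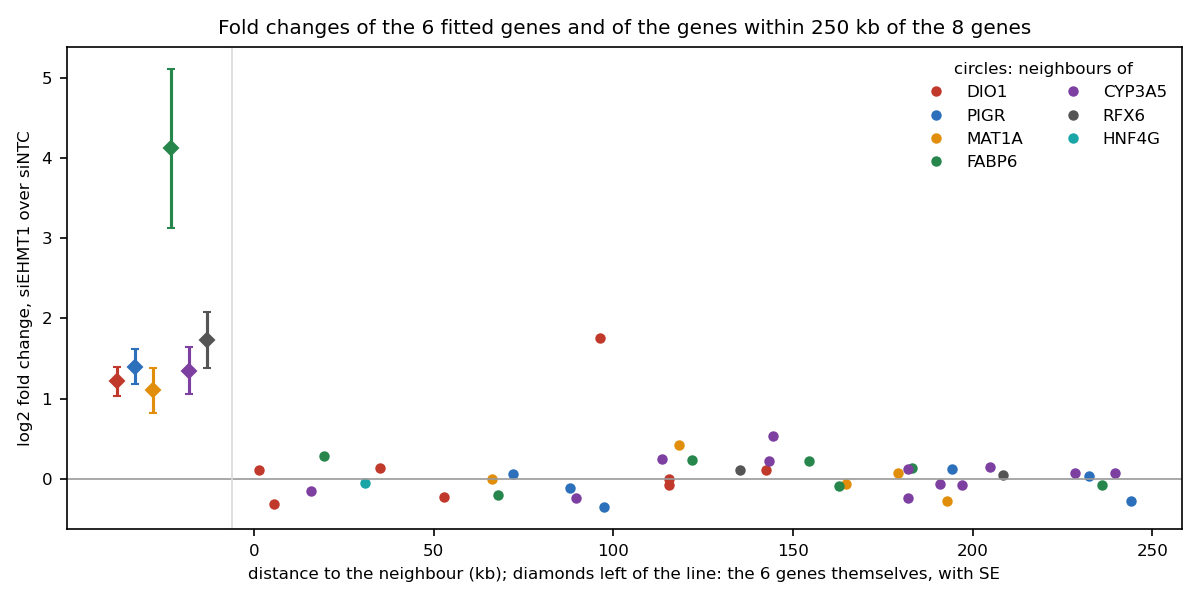
Log2 fold change of siEHMT1 over siNTC (vertical axis) against the distance in kb between each neighbour and the nearest end of the gene it neighbours (horizontal axis). Diamonds left of the line are the 6 fitted genes with their SE, and the 41 circles are their neighbours and the neighbour of HNF4G, of which 1, LDLRAD1 at 1.76, lies with the diamonds.

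The same comparison was made for the rest of each pathway, from lists of genes chosen for their function. Without the 8 genes and without the separate lists of cell type markers, these lists held 175 genes, of which 52 could be tested with siEHMT1. None passed the test and 5 had an unadjusted p under 0.05 in edgeR, 9.62% of those tested against 9.58% of all genes. None passed in DESeq2 (4 unadjusted) or limma-voom (5 unadjusted), while 2 were higher past the threshold with the replicate block and 1 without siEHMT1 replicate 1.

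Of the regulators, 12 of the 28 other endodermal transcription factors were tested with siEHMT1, and the median log2 fold change was 0.0854. FOXA1, the pioneer factor of prostate and liver, was at -0.08 (SE 0.0860), KLF4 at 0.31 (SE 0.176) and PPARA at 0.08 (SE 0.153). ISX, an intestinal homeobox factor that acts on vitamin A uptake, had siNTC counts of 68 and 35 and siEHMT1 counts of 122 and 138 (log2 fold change 0.84, SE 0.215, adjusted p = 0.155). HNF4A, the relative of HNF4G that dominates in liver, had 1 count in all 12 libraries together. FOXA2 had 2 counts, while CDX1, GATA4, NR1H4 (the bile acid receptor) and NR1I2 (the drug receptor that drives CYP3A genes) had 0 counts in all 12 libraries. ISX and the factors at or near 0 were named after their values were seen.

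For the enzymes, levels in the methionine cycle were compared per length. In the 8 stable-line libraries the mean level of MAT1A was 0.749 RPKM and that of MAT2A, the form used outside the liver, 3.25 RPKM, with AHCY, which clears the product of methyl transfer, at 127.0 RPKM, while BHMT and BHMT2, which remethylate homocysteine in liver, had 0 counts in all 12 libraries. With siEHMT1, none of the 11 tested genes of the methionine cycle passed, their median was -0.0332, and MAT2A was at -0.03 (SE 0.104). Of the thyroid hormone and selenoprotein genes, which act in the pathway of the hormone or in making selenoproteins such as DIO1, 12 of 13 were tested. None passed (median -0.0157). DIO3, which inactivates thyroid hormone, had a log2 fold change of -0.24 (SE 0.274). TRNAU1AP, a factor of selenocysteine insertion, had 0.60 (SE 0.144, adjusted p = 0.119). DIO2 had siNTC counts of 2 and 2 and was at 0 in both siEHMT1 samples.

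CYP3A5 had the highest level of the listed CYP3A genes in these cells. Over the 4 siRNA samples CYP3A4 had 1 count, CYP3A7 2 and CYP3A43 9, against 190 for CYP3A5. The gap is smaller per length, with means over these samples of 0.471 RPKM for CYP3A5 and 0.0882 RPKM for CYP3A43. These genes are similar in sequence, so a few reads could be shared among them. Of the other drug and steroid genes 6 of 18 were tested and none passed. POR, which hands electrons to cytochromes P450, was at 0.03 (SE 0.108), CYP2J2 at -0.06 (SE 0.187) and GSTA1, a liver glutathione transferase, at 1.27 (SE 0.357, adjusted p = 0.200, edgeR). Of the ileal partners of FABP6, SLC10A2, which takes up bile acids, had 1 count in the 12 libraries and FGF19 had 0, while SLC51A, a subunit of the bile acid exporter, had 5 to 36 counts in each. FGFR4, the receptor of FGF19, was at -0.19 (SE 0.221) and SLC51A at 0.71 (SE 0.448, adjusted p = 0.635).

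The end products of liver and gut came last. Of 38 other intestinal genes 5 were tested and of 28 other hepatocyte genes 2 were tested, and none passed. CPS1, the first enzyme of the urea cycle, was at 0.24 (SE 0.118), DPP4, a peptidase of the brush border, at 0.12 (SE 0.149), and TFF3, a peptide of goblet cells, at 0.63 (SE 0.425). In the 39 genes of the intestinal list, PIGR included, 20 had at most 3 counts in every one of the 12 libraries, and in the 29 hepatocyte genes, MAT1A included, 16 did. Of the 20 other enteroendocrine and islet genes 2 were tested: MNX1 at 0.44 (SE 0.236) and RFX3, a relative of RFX6, at 0.06 (SE 0.275). NEUROG3 and PDX1, which act with RFX6 in islet and enteroendocrine development, had at most 3 counts and 1 count in any library. The trypsins that SPINK1 inhibits were near 0 with siNTC and siEHMT1, at 0 to 4 counts for PRSS1. In the stable lines PRSS1 had 16 to 21 counts with Veh and 10 to 20 with Dox, a mean of 0.864 RPKM and a log2 fold change of -0.79 (SE 0.351, adjusted p = 0.285, edgeR).

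In the stable lines, which the rule for choosing the genes does not use, no difference between Dox and Veh was found for these genes beyond the spread of the 4 lines. Of the 8 genes, 5 were tested across lines, with line as a term and the 4 lines as the replicates. None passed the test at an adjusted p of 0.05, against 0.603% of 14105 genes that rose and 1.5% that fell, and none had an unadjusted p under 0.05. Every other tool and setting tried also called 0 of those it could test. Their median log2 fold change was -0.131 against 0.00498 over all genes.

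DIO1 had 91, 57, 72 and 47 counts in the Veh libraries of WT, K450R, K451R and K450RK451R and 79, 49, 90 and 89 in the Dox libraries. Its mean level was 7.03 ± 1.67 CPM with Veh and 7.09 ± 1.52 CPM with Dox (SD, n = 4 lines each), and the fold was 1.02 with a 95% interval of 0.779 to 1.34 (adjusted p = 0.970, edgeR). The Veh and Dox libraries overlapped throughout, and the sign of this fold turned without the WT line (log2 fold change -0.05) or without the K450RK451R line (-0.13). PIGR had 169, 77, 98 and 118 counts with Veh and 141, 88, 135 and 185 with Dox. Its mean was 11.9 ± 1.99 CPM with Veh and 12.7 ± 2.98 CPM with Dox, a fold of 1.06 (0.874 to 1.29, adjusted p = 0.832).

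MAT1A had 35, 23, 27 and 26 counts with Veh and 16, 25, 42 and 31 with Dox, a fold of 0.877 (0.591 to 1.30, adjusted p = 0.817). FABP6 had 14, 12, 10 and 15 counts with Veh and 7, 10, 16 and 22 with Dox, a fold of 0.913 (0.532 to 1.57, adjusted p = 0.921). The intervals of DIO1, PIGR, MAT1A and FABP6 leave out a 2-fold change in either direction. CYP3A5 had 19, 11, 11 and 10 counts with Veh and 4, 16, 22 and 11 with Dox, a fold of 0.888 (0.499 to 1.58, adjusted p = 0.898), and its interval just reaches a 2-fold fall. Its direction also turned without the WT line (log2 fold change 0.21).

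The other 3 genes were too low to be tested across lines. RFX6 had 1, 5, 8 and 5 counts with Veh and 3, 0, 4 and 2 with Dox, lower with Dox in 3 of 4 lines. HNF4G had 9, 0, 8 and 3 counts with Veh and 2, 1, 11 and 4 with Dox. In CPM, K451R was the highest with Veh (0.963, next to 0.762 in WT) and with Dox (0.897). At these counts neither lines nor treatments were compared. SPINK1 had 3, 0, 3 and 0 counts with Veh and 0, 3, 0 and 5 with Dox, so 7 of the 8 libraries lay at or under 3 counts, and no change was detectable at this depth.

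Within a line there was 1 library per condition and so no test, only the ratio with its counting interval. Of the 32 pairs, 5 had both counts at or under 3 and 3 of the other 27 had an interval that left out 1. No share of all genes with such an interval is given here, so nothing is read from this count. DIO1 was higher with Dox in K450RK451R (ratio 1.45, interval 1.01 to 2.11) and had ratios of 0.747 to 1.16 in the other 3 lines. CYP3A5 was lower with Dox in WT, at 19 against 4 counts (ratio 0.280, interval 0.0694 to 0.843). That gap was present in both columns of each condition, with 10 and 9 counts with Veh and 3 and 1 with Dox, which agree within counting noise and count as 1 library. In K450R and K451R the ratio of CYP3A5 was 1.26 and 1.36 and in K450RK451R it was 0.843, all with intervals that hold 1. RFX6 in K450R had 5 counts with Veh and 0 with Dox, at least 1.92-fold lower when the Dox library is set at 3 counts. Among the 20 pairs with 20 or more summed counts, 1 was at least 2-fold lower, the CYP3A5 pair in WT, and none was 2-fold higher. Over all genes with as many counts, the share that was 2-fold lower was 2.52% (WT), 1.71% (K450R), 1.8% (K451R) and 2.23% (K450RK451R), and the share 2-fold higher was 1.62%, 2.22%, 2.34% and 3.48% in the same order.

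**Figure D3:**
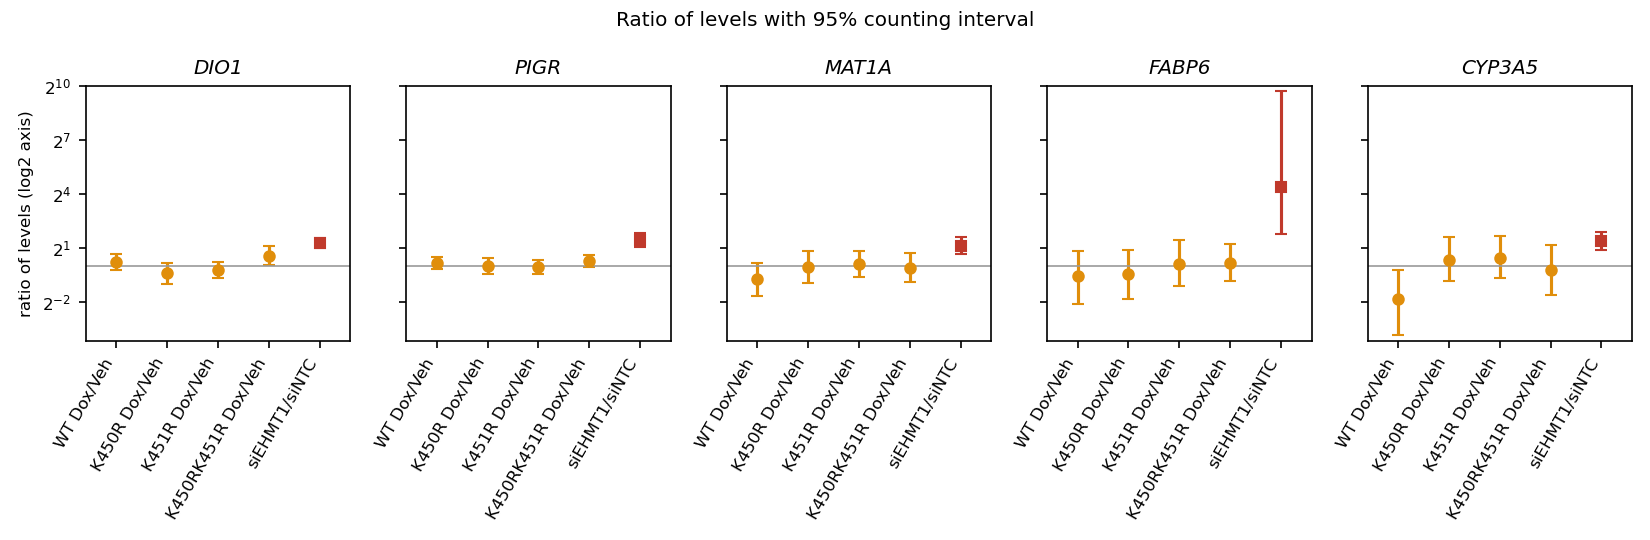
Ratio of Dox to Veh in each stable line (circles) and of siEHMT1 to siNTC from summed counts (squares) for the 5 genes tested in both experiments, on a log2 axis with exact 95% intervals that cover counting error only. The Dox ratios lie on both sides of 1, and the siEHMT1 ratios lie between 2.16 for MAT1A and 20.5 for FABP6.

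Among the 4 lines, PIGR came nearest to a difference and did not pass the test. Over Veh and Dox libraries PIGR was at 15.1 ± 1.12 CPM in WT, 13.1 ± 1.70 in K450RK451R, 11.4 ± 0.558 in K451R and 9.40 ± 0.0438 in K450R (SD, n = 2 libraries each). Both WT libraries lay above both libraries of K450R and of K451R, and the WT and K450RK451R libraries met at 14.3 CPM. The test of any difference among lines gave an adjusted p of 0.184 for PIGR (quasi-likelihood F test in edgeR), the one gene of the 5 with an unadjusted p under 0.05, and adjusted p-values of 0.556 for DIO1, 0.752 for CYP3A5, 0.822 for MAT1A and 0.841 for FABP6. None of the 5 passed, against 3.05% of all genes.

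The spread over the 8 stable-line libraries was near counting noise for some of the genes and above it for others. The coefficient of variation of MAT1A was 18.5%, where counting alone gives 18.9%, and that of FABP6 was 22.3%, where counting gives 27.5%. For DIO1 it was 20.9% against 11.8% and for PIGR 19.5% against 8.90%. RFX6 and HNF4G varied by 84.6% and 83.6% at a counting share of 53.5% and 45.9%. At these depths the spread of MAT1A and FABP6 was no wider than counting alone gives.

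Set side by side across the 2 experiments, the genes other than HNF4G and SPINK1 fell into 3 patterns. DIO1 and MAT1A stood in the stable lines within or under their siNTC range. DIO1 was at 4.74 to 8.91 CPM over the 8 libraries against 7.86 and 9.01 CPM with siNTC. MAT1A was mostly under that range, at 1.80 to 3.43 CPM (mean 2.74) against 3.31 and 4.31 CPM (mean 3.81). PIGR and FABP6 stood near their siEHMT1 level without any silencing: PIGR at 9.37 to 15.9 CPM, around the 13.0 and 13.7 CPM of siEHMT1, and FABP6 at 0.789 to 1.70 CPM, around the 1.04 and 1.67 CPM of siEHMT1, while EHMT1 was at 71.0 to 88.4 CPM in the Veh libraries, near its siNTC level. CYP3A5 and RFX6 stood under both siRNA groups, at 0.451 to 1.79 CPM and 0 to 0.963 CPM. The experiments differ in transfection, viral selection, serum and scaling, and these cannot be told apart from any other difference between them.

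**Figure D4:**
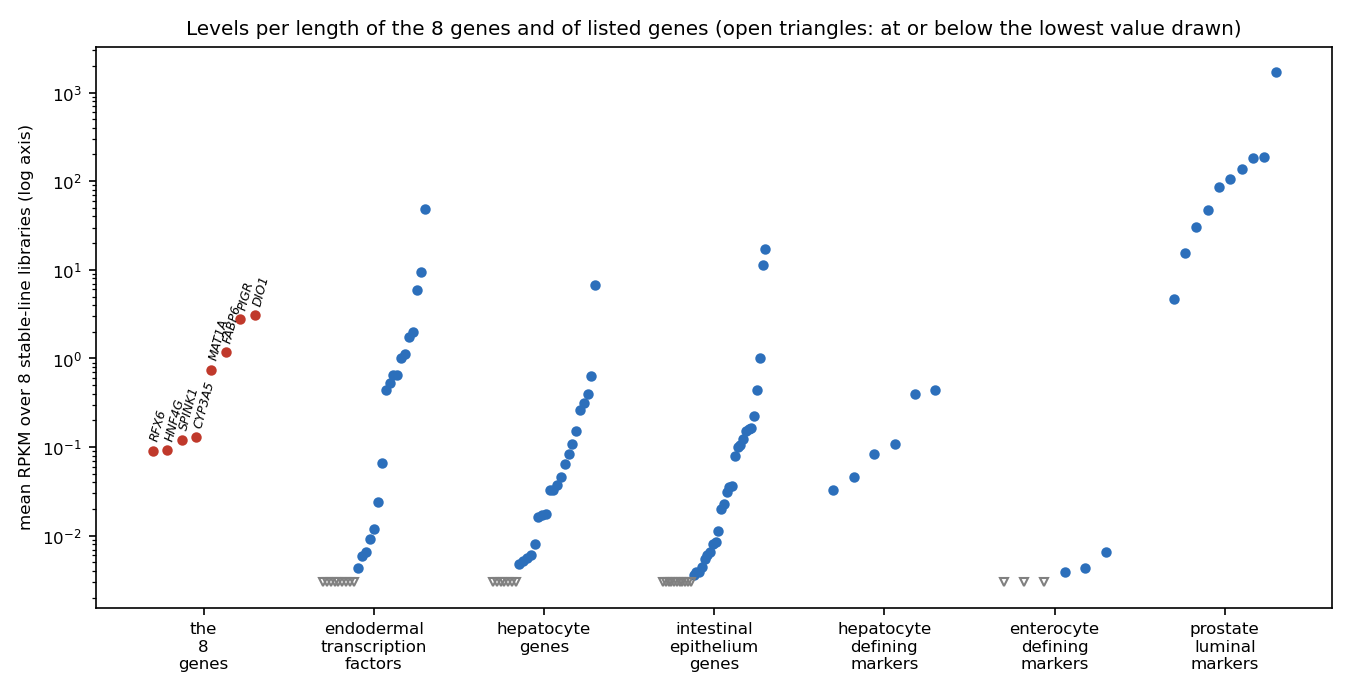
Mean level per length (RPKM, log axis) over the 8 stable-line libraries of the 8 genes and of listed genes, 1 point a gene, sorted within each group. The 8 genes lie between 0.0912 and 3.09 RPKM, under all of the prostate luminal markers (4.71 RPKM and more) and above every one of the enterocyte defining markers.

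Per length, the order in the stable lines was DIO1 (3.09 RPKM, range 2.08 to 3.90), PIGR (2.80, 2.14 to 3.64), FABP6 (1.18, 0.725 to 1.56), MAT1A (0.749, 0.492 to 0.935), CYP3A5 (0.129), SPINK1 (0.121), HNF4G (0.0929) and RFX6 (0.0912). The ranges of DIO1 and PIGR overlap, as do those of FABP6 and MAT1A, and the last 4 overlap each other. Between MAT1A and the last 4, and between FABP6 and PIGR, the ranges do not meet. With siEHMT1 the order of means was DIO1 (8.52 RPKM), PIGR (3.05), MAT1A (2.20), RFX6 (1.26), FABP6 (1.24), CYP3A5 (0.678), HNF4G (0.134) and SPINK1 (0.0676). With siEHMT1, DIO1 stood at the 80.4 percentile of 19404 protein-coding genes by mean RPKM and SPINK1 at 34.4, and over all 4 siRNA samples at 74.2 and 31.5. The exonic length of CYP3A5 includes long alternative ends (9815 bases in all), and its RPKM depends on that length.

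With doxycycline, 2 of the 53 tested genes of the function lists passed, and both rose. Of all genes, 0.603% passed as higher and 1.5% as lower. An unadjusted p under 0.05 in edgeR was found for 10 of the 53, 18.9% against 14.4% of all genes. FOXA1 rose by 0.36 on the log2 scale (SE 0.0573, adjusted p = 0.000418, edgeR), with 1934, 1417, 1800 and 2000 counts with Veh and 1663, 2267, 3417 and 3482 with Dox, and also differed among lines (adjusted p = 0.000961). THRB, a thyroid hormone receptor, rose by 0.40 (SE 0.11, adjusted p = 0.0482), a call lost in 8 of the 12 alternatives tried, DESeq2 and limma-voom among them. Neither gene passed with siEHMT1. Of the prostate luminal markers, HOXB13, TMPRSS2 and SLC45A3 rose with Dox by 0.19 to 0.23 on the log2 scale, calls that were lost in 4 to 7 of the 12 alternatives. SLC45A3 also differed among lines (adjusted p = 0.0318).

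The genes most like DIO1 over the 8 stable-line libraries, by Pearson's r of log2 CPM among 10865 genes with a mean of at least 50 counts, were IGSF8 (0.971), RP4-778K6.1 (0.949) and HEXDC (0.948). For PIGR they were ZNF674-AS1 (0.947), PLGRKT (0.942) and PRKDC (0.920), and for MAT1A they were KIF4A (0.938), PIGK (0.938) and PARP2 (0.937). None of the 8 genes was among the 3 nearest of another. With 8 libraries from 4 lines, which share depth and line, these are the highest of many values and a description alone.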

How the data were processed

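Total RNA of LNCaP cells (2 siNTC, 2 siEHMT1 and 16 stable-line columns) was sequenced from stranded libraries. The authors deposited whole-number counts per gene in 2 tables, made per the submitters' processing notes with FastQC 0.11.9, STAR 2.7.2 and featureCounts 1.6.4 on hg19. The annotation release and strand setting are not given in the sources used here, and GENCODE 44 matched 55538 of 57773 gene IDs. The 8 genes and all lists were chosen with earlier results of these data known. Stable-line columns of a condition were summed, leaving 1 library per condition. Counts were fitted in edgeR 4.0.16 (TMM, filterByExpr, quasi-likelihood) with Benjamini-Hochberg adjustment over all genes tested, as siEHMT1 against siNTC alone and as line plus treatment over 8 libraries. The steps were tested on simulated data. DESeq2 1.42.0, limma-voom (limma 3.58.1), another scaling, filters, blocks, left-out samples and, added after seeing the data, the legacy quasi-likelihood fit were alternatives. The labels do not say whether siRNA replicates are separate cultures, so p-values measure only the spread between these samples. Named were the 8 genes, EHMT1, listed genes called in a fit, up to 4 best-counted genes per list, and the 3 nearest patterns of genes with a mean of at least 20 counts. Other relatives, partners and neighbours of the 8 were named after their values were seen. Some listed genes are not reported here.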

Additional observations from a re-analysis of the deposited data

How the results depend on the processing

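The counts of genes called depended on the tool and the samples, and the cause was not tested. With siEHMT1, 9 genes were higher and 10 lower: DESeq2 called 2 higher, and 6 were lower with limma-voom, 6 with upper-quartile scaling and 4 with no filter on low counts. Leaving out 1 siRNA sample gave 20 to 44 higher and 18 to 82 lower. The siRNA replicate numbers did not pair the samples (correlation of same-numbered deviations -0.00774 over 12781 genes), and the fit with the replicate block called 62 higher and 65 lower. With Dox, 85 rose and 211 fell: DESeq2 gave 23 and 117, no term for line 1 and 3, leaving out a line 20 to 181 and 94 to 320, and the 16 columns as samples with line and a replicate block 873 and 1027, where repeat columns stand as replicates. Differences among lines, 430 in all, were 239 with DESeq2, 28 with no term for treatment and 253 to 421 without 1 line. Within WT, 1 column alone gave 146 to 147 genes 2-fold higher and 234 to 255 lower, and within K450RK451R 194 to 203 lower. Each column holds fewer reads than the summed library, and the part of depth in this was not tested. Leaving out a line, the Dox log2 fold change of DIO1 ranged from -0.13 (without K450RK451R) to 0.14 and was -0.05 without WT, and that of CYP3A5 ranged from -0.43 to 0.21 (without WT). The siEHMT1 log2 fold change of FABP6, 4.12 in the fit reported, ran from 3.49 with limma-voom to 6.59 without siNTC replicate 1, which leaves a control at 0 counts and so gives no bound. HNF4G and SPINK1, below the filter on low counts, have no fold change in the fit reported. No setting called any of the 5 tested genes with Dox or among lines. Depth limits HNF4G, SPINK1 and, in the stable lines, RFX6, which lay at 0 to 11 counts per library.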
